A study of Mus musculus with 6 samples.

Results

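A set of 10 enzymes that reduce, oxidize, hydrolyze or conjugate reactive quinones, carbonyls, aldehydes and epoxides were examined in RAW264.7 macrophages exposed to SKI-II. They were chosen by gene symbol, namely Nqo1, Nqo2, Cbr1, Cbr3, Akr1a1, Akr1b3, Akr1b8, Aldh2, Ephx1 and Ugdh, and all 10 were matched among the 49315 genes of the count table. RAW264.7 is a macrophage-like mouse cell line. SKI-II is best known for inhibiting sphingosine kinases. Wild-type cells received 4 μg/mL SKI-II or the same volume of DMSO, its vehicle, and poly(A) RNA was sequenced after 24 h in 3 libraries per condition. The labels do not say whether the 3 libraries of a condition came from separate cultures, so the p-values measure the spread between these libraries only, which may be technical.

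Quinones, aldehydes and epoxides are electrophiles that arise from oxidized lipids, from drugs and from normal metabolism, and they react with proteins and DNA. Reductases of several families convert quinones and carbonyls to hydroquinones and alcohols at the expense of NADPH or NADH. Aldehyde dehydrogenases oxidize aldehydes to acids, and epoxide hydrolases open epoxides to diols. Glucuronidation attaches glucuronic acid, taken from UDP-glucuronic acid, so that the products can be exported. Many of these enzymes, with NQO1 as the textbook case, are controlled in part by the transcription factor NRF2 acting on antioxidant response elements, and some also by the aryl hydrocarbon receptor AHR.

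The libraries held 12495957 to 20050677 counts each. Macrophage markers were present in every library, with summed levels of 8550 to 11700 CPM (counts per 1000000 of the library) in DMSO and 4040 to 6510 in SKI-II. By the test used below, 3 of the 7 were lower in SKI-II, against 19.7% of all tested genes. All 4 epithelial markers examined had no counts, and the T cell, B cell and fibroblast lists summed to at most 1.25 CPM in any library. As these are bulk libraries, fewer cells of a type and less RNA per cell cannot be told apart. Within each group, libraries 1 and 3 lay farthest apart, and library 3 was somewhat farther from library 2 than library 1 was. As chi-square over degrees of freedom, DMSO library 2 differed by 19.1 from library 3 and by 15.4 from library 1. For SKI-II these values were 31.3 and 29.7. DMSO library 3 gave the highest DMSO level for 9 of the 9 members that could be tested. DMSO library 1 gave the lowest for 7. SKI-II library 3 gave the highest SKI-II level for 5 and SKI-II library 1 the lowest for 6. Results that change without the libraries numbered 3 are given with and without them. No fit left out both libraries numbered 1.

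Of the 10 enzymes, 9 had enough counts to be tested, and Nqo1 fell below the filter on low counts. Levels are given as normalized counts, that is, each count scaled by TMM to a common library size of 16042438. The groups were compared by the quasi-likelihood F test in edgeR, with p-values adjusted by Benjamini-Hochberg across 12274 genes, and a gene was called at an adjusted p below 0.05. Akr1b3, Akr1b8, Aldh2 and Nqo2 rose, which makes 4 of 9 against 18.4% of all tested genes. This count was 2 without DMSO library 2, 3 without DMSO library 1, SKI-II library 2 or SKI-II library 3, and 5 without DMSO library 3. Ugdh fell, 1 of 9 against 19.7% of all tested genes. Cbr3, Akr1a1, Ephx1 and Cbr1 did not pass the test. With the further condition of a log2 fold change above 1, 2 members remained higher, Akr1b3 and Akr1b8, where the share over all tested genes was 8.28%, and none was lower by more than 1 on the log2 scale, where it was 7.44%. Tested directly against a log2 fold change of 1, neither passed (edgeR adjusted p = 0.0985 for Akr1b3 and 0.367 for Akr1b8). The 3 SKI-II libraries lay above all DMSO libraries for 5 members (24.8% of all tested genes) and below all of them for 2 (25.5%). The median log2 fold change of the 9 members was 0.40, against 0.00377 over all tested genes, and 7 of the 9 were above 0 where 50.2% of all tested genes were. The members, and the gene lists below, were chosen with earlier results of these data known. Comparisons of them with all tested genes are therefore descriptive only.

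**Figure D1:**
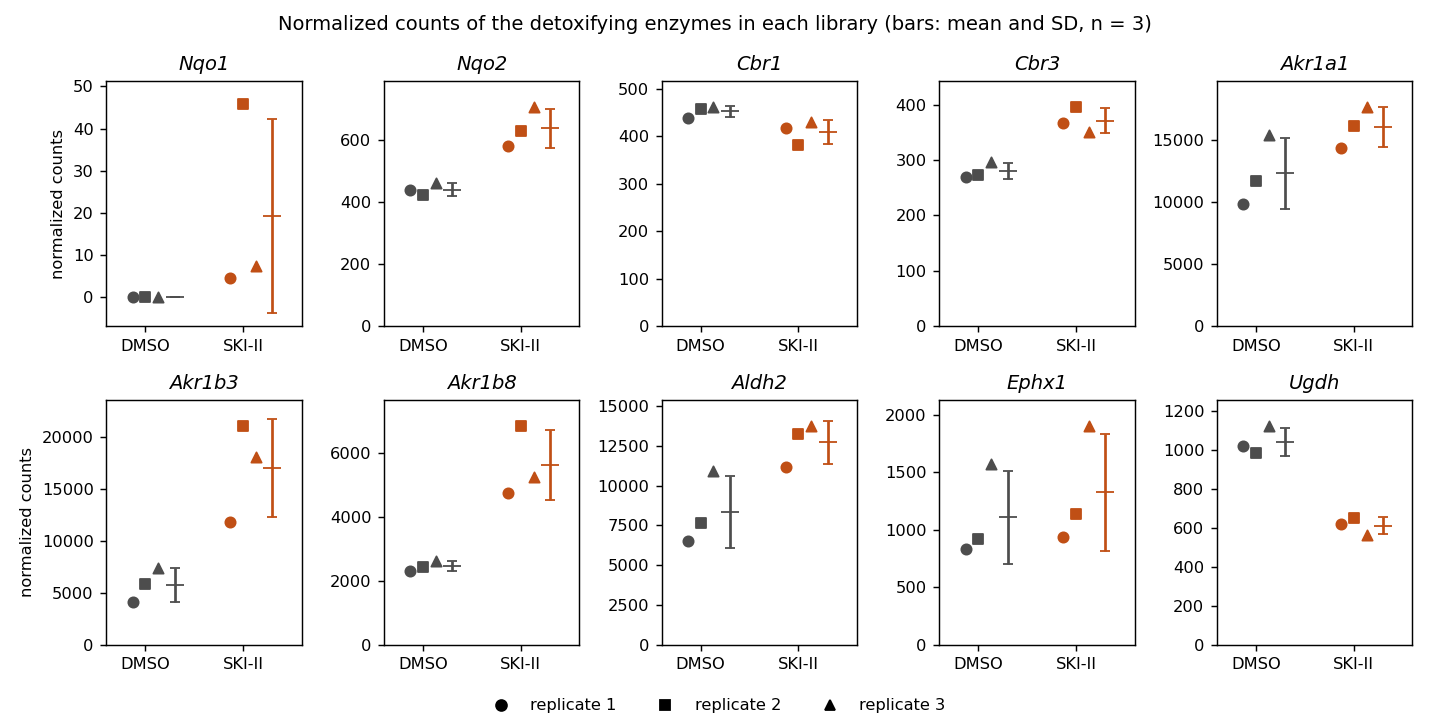
Normalized counts of the 10 enzymes in each library, one panel per gene, with DMSO in gray and SKI-II in orange. Symbols mark the replicate number and the bars show the mean and SD of 3 libraries; the SKI-II libraries stand above the DMSO libraries for Nqo2, Cbr3, Akr1b3, Akr1b8 and Aldh2 and below them for Cbr1 and Ugdh, and Nqo1 has no count in DMSO.

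The sequences just upstream of 3 members are shown, since their transcripts were the ones that appeared from no counts (Nqo1), that more than doubled with little spread in DMSO (Akr1b8) and that fell (Ugdh). RefSeq windows on GRCm38.p6, from 250 bases before to 50 bases after the annotated start, were at hand for 8 of the 10 members, not for Akr1b3 and Aldh2. Nqo2 had 2 windows, which makes 9 in all. Each is printed 5′ to 3′ on the strand of the gene, up to the base before the transcript start, from chr8:107403207-107403455 on the minus strand for Nqo1, chr6:34353896-34354118 on the plus strand for Akr1b8 and chr5:65435950-65436092 on the minus strand for Ugdh. Capitals mark matches, on either strand, to the core antioxidant response element TGACNNNGC and to GCGTG, the core of the element that AHR binds, which reads CACGC on the opposite strand.
Nqo1: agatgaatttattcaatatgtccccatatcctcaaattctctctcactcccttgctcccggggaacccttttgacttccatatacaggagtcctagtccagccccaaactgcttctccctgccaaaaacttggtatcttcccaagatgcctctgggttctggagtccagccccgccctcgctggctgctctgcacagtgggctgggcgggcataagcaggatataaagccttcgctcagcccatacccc
Akr1b8: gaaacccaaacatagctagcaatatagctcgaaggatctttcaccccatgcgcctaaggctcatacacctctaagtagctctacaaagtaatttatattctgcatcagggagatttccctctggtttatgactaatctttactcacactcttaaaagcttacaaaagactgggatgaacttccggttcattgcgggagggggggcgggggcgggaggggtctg
Ugdh: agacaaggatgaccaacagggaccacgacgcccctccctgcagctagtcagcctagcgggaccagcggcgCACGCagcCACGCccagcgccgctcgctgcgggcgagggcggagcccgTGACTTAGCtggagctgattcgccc
The antioxidant response element core was found in 1 of the 9 windows, that of Ugdh, where 1 match began 132 bases before the RefSeq start, in capitals above, and another lay 94 bases before it, inside the longer GENCODE transcript. Over all 32851 RefSeq windows, 12.4% held this core. The AHR element core was found in 5 of the 9 windows, those of Akr1b8, Cbr1 and Ugdh and both of Nqo2, against 32.4% of all windows. In Ugdh its matches began 180, 172 and 94 bases before the start, and the last overlapped the second antioxidant response element match. The match of Akr1b8 began 26 bases before the RefSeq start, past the end of the printed stretch, and the printed stretches of Nqo1 and Akr1b8 hold neither core. These are matches of letters and not measured binding sites. Sequence more than 250 bases before the RefSeq start was not searched. A window without a match therefore does not show that the gene lacks such an element.

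Among the quinone reductases, Nqo1 went from no counts to a few, and Nqo2 rose moderately. Nqo1 (ENSMUSG00000003849, chr8:107388225-107403206, minus strand, GRCm38) encodes NAD(P)H:quinone oxidoreductase, which reduces quinones fully to hydroquinones without releasing a semiquinone. It had 0 counts in each of the 3 DMSO libraries and 4, 48 and 9 counts in the SKI-II libraries, so that 1 SKI-II library carried 48 of the 61. The groups did not overlap, and the SKI-II level was 19.2 ± 23.1 normalized counts (SD, n = 3). Taking 3 counts over the DMSO group as the most that 0 allows, Nqo1 was at least 18.2-fold higher in SKI-II; this limit was 5.78-fold without SKI-II library 2, 11.6-fold without DMSO library 1 and 11.7-fold without DMSO library 3. The limit covers only the counting error of the zeros in DMSO and takes the SKI-II counts as exact. Without the filter the adjusted p was 4.23e-09 in edgeR, and in DESeq2 it was 0.000103. The unfiltered edgeR fit also changed the standard errors of tested members, from 0.249 to 0.162 for Akr1b3 and from 0.134 to 0.176 for Nqo2. Its adjusted p is therefore not comparable with those of the main fit. It may not reflect the spread between 4, 48 and 9 counts. The ratio of Nqo1 to Nqo2 in normalized counts was 0 throughout DMSO and reached 0.00772, 0.073 and 0.0104 with SKI-II (exact two-sided permutation test of the log2 ratio over libraries, p = 0.1).

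Nqo2 (chr13:33964687-33988443, plus strand) encodes a relative of NQO1 that takes electrons from dihydronicotinamide riboside in place of NAD(P)H. Its normalized counts were 438, 421 and 460 in DMSO and 580, 628 and 705 in SKI-II. Every SKI-II library was above every DMSO library. The level rose 1.45-fold, from 440 ± 19.9 to 637 ± 63.1 (SD, n = 3), with a log2 fold change of 0.54 (SE 0.13) and an adjusted p of 0.0110 in edgeR, and without DMSO library 2 the adjusted p was 0.0618. On the opposite strand, Serpinb6a, a serine protease inhibitor gene, covers 762 of the 4042 exonic bases of Nqo2, and 17.5% of the 50-base stretches of Nqo2 transcripts also occur in its transcripts. Serpinb6a itself went from 1916 ± 465 to 3873 ± 148 normalized counts (log2 fold change 1.01, SE 0.16, edgeR adjusted p = 0.00116), and since the strand setting of the counting is not given, reads of the 2 genes cannot be told apart there.

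The carbonyl reductases Cbr1 and Cbr3 are short-chain dehydrogenases that reduce quinones, aldehydes and ketones with NADPH. They lie 72.7 kb apart on the same strand of chromosome 16, at chr16:93605853-93610505 and chr16:93683215-93690990. The DMSO libraries held 439, 457 and 461 normalized counts of Cbr1, and the SKI-II libraries 417, 382 and 430. All SKI-II libraries were below all DMSO libraries, but the difference was small, from 453 ± 11.9 to 410 ± 25.1 (SD, n = 3), with a log2 fold change of -0.14 (SE 0.13, edgeR adjusted p = 0.430). Cbr3 had 270, 273 and 297 in DMSO and 366, 395 and 351 in SKI-II, again without overlap and in the other direction. Its means were 280 ± 14.8 and 371 ± 22.3, with a log2 fold change of 0.40 (SE 0.14), and its edgeR adjusted p, 0.050 when rounded, lay just above the threshold. It passed with RLE scaling (0.0462), under a filter of 10 counts per library (0.0457), with the replicate number as a block (0.0435) and without both libraries numbered 3 (0.0481). It did not pass in DESeq2 (0.0565), in limma-voom (0.0514), with library size alone (0.0517), without a filter (0.137) or with any single library left out (0.0591 to 0.168).

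Every SKI-II library had a higher ratio of Cbr3 to Cbr1 than any DMSO library. Across the DMSO libraries it was 0.615, 0.597 and 0.644, and with SKI-II it was 0.877, 1.03 and 0.816, so that Cbr3 moved from well below Cbr1 in counts to near it. On the log2 scale the mean went from -0.69 ± 0.06 to -0.14 ± 0.18 (SD, n = 3), a 1.46-fold shift. The exact two-sided permutation test over libraries gave p = 0.1, the smallest that 3 against 3 allows, and 0.133 after adjustment over the 4 ratios compared. Their transcripts have 1 stretch of 50 bases in common.

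The largest log2 fold changes among the 9 tested members were those of a pair of aldo-keto reductases. Akr1b3 (chr6:34302434-34317478, minus strand) is mouse aldose reductase, which reduces glucose to sorbitol and many lipid aldehydes to alcohols. Normalized counts were 4103, 5825 and 7383 with DMSO and 11833, 21050 and 18007 with SKI-II. The lowest SKI-II library was thus well above the highest DMSO library. The mean rose 2.94-fold, from 5770 ± 1641 to 16963 ± 4696 (SD, n = 3; log2 fold change 1.56, SE 0.25, edgeR adjusted p = 0.00121), and with 1 library left out the log2 fold change lay between 1.35 and 1.77 with adjusted p of at most 0.00814. Of the 50-base stretches of its annotated transcripts, 13.6% also occur in other genes, mainly the pseudogenes Gm38056, Gm6644, Gm6736 and Gm12138.

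Akr1b8 (chr6:34354119-34368463, plus strand), an aldose reductase-like enzyme that is the mouse counterpart of human AKR1B10 in function, lies 36.6 kb from Akr1b3. The DMSO libraries gave 2299, 2435 and 2617 normalized counts, and the SKI-II libraries 4740, 6854 and 5258. The DMSO libraries were close together, and each SKI-II library was far above them. The mean rose 2.29-fold, from 2450 ± 160 to 5617 ± 1102 (SD, n = 3), with a log2 fold change of 1.20 (SE 0.15, edgeR adjusted p = 0.000309) and a range of 1.03 to 1.30 with 1 library left out. The ratio of Akr1b8 to Akr1b3 was 0.560, 0.418 and 0.355 in DMSO and 0.401, 0.326 and 0.292 in SKI-II. These ranges overlapped, and the log2 ratio differed by -0.37 (exact permutation test, p = 0.2).

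Akr1a1 (chr4:116636510-116651680, minus strand) encodes aldehyde reductase, which in mouse also takes part in ascorbate synthesis. Normalized counts of 9807, 11664 and 15423 with DMSO compared with 14354, 16136 and 17619 with SKI-II. DMSO library 3 lay inside the SKI-II range, so the groups overlapped. The means were 12298 ± 2861 and 16036 ± 1635 (SD, n = 3), with a log2 fold change of 0.38 (SE 0.18) that did not pass the test (edgeR adjusted p = 0.126). Without DMSO library 3 it was 0.58 (adjusted p = 0.0218), and without both libraries numbered 3 it was 0.51 (adjusted p = 0.0367). With the replicate number as a block it was 0.40 (SE 0.11, edgeR adjusted p = 0.0173). The ratio of Akr1b3 to Akr1a1 was higher in every SKI-II library than in any DMSO library, with values of 0.418, 0.499 and 0.479 in DMSO and 0.824, 1.30 and 1.02 in SKI-II. The log2 ratio went from -1.11 ± 0.13 to 0.05 ± 0.33, a 2.22-fold shift that did not overlap (exact permutation test, p = 0.1, the smallest possible).

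**Figure D2:**
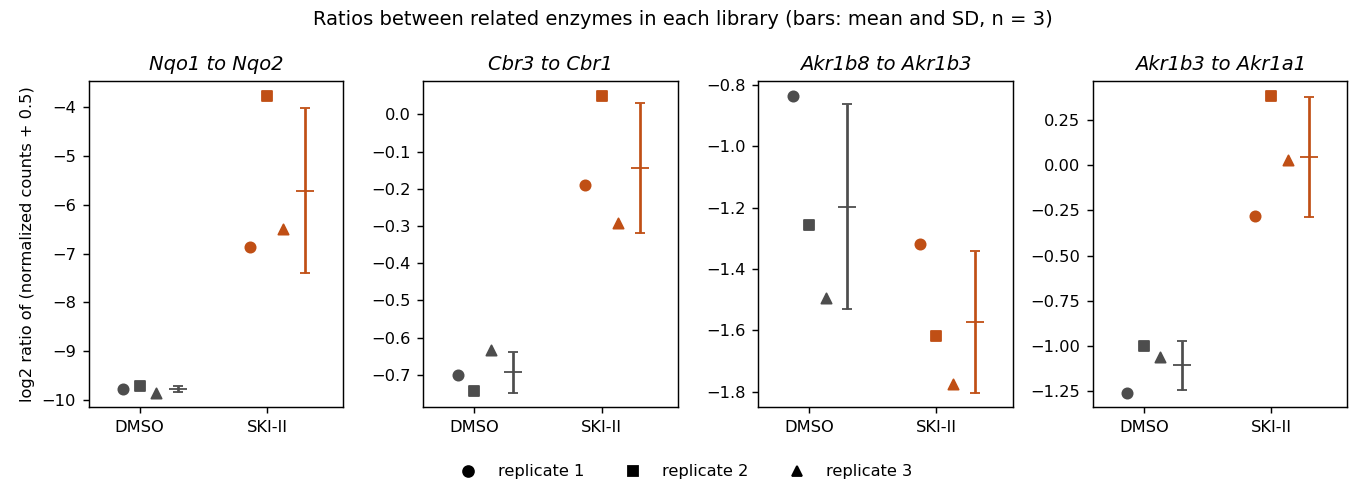
Log2 ratios of normalized counts, with 0.5 added to each count, between 4 pairs of related enzymes in each library; symbols mark the replicate number and bars show the mean and SD of 3 libraries. The DMSO and SKI-II libraries are apart for Nqo1 to Nqo2, Cbr3 to Cbr1 and Akr1b3 to Akr1a1, and they overlap for Akr1b8 to Akr1b3; with Nqo1 at 0 in DMSO, the size of its shift depends on the 0.5.

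Aldh2 (chr5:121566027-121593824, minus strand) encodes the mitochondrial aldehyde dehydrogenase that oxidizes acetaldehyde and lipid-derived aldehydes to acids. The levels were 6502, 7671 and 10892 normalized counts with DMSO and 11171, 13232 and 13758 with SKI-II. The groups did not overlap, but DMSO library 3 came close to SKI-II library 1. The mean rose 1.52-fold, from 8355 ± 2274 to 12721 ± 1367 (SD, n = 3; log2 fold change 0.61, SE 0.19, edgeR adjusted p = 0.0326). The call rested on several libraries, since the adjusted p was 0.0882 without DMSO library 1, 0.134 without DMSO library 2, 0.0957 without SKI-II library 2 and 0.0798 without SKI-II library 3. Without both libraries numbered 3 the log2 fold change was 0.78 (adjusted p = 0.00488).

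Ephx1 (chr1:180976210-181020904, minus strand) encodes microsomal epoxide hydrolase. Its normalized counts were 832, 916 and 1572 in DMSO and 937, 1134 and 1904 in SKI-II. Within each group the library numbered 3 was far above the others, and the groups overlapped. The means were 1107 ± 405 and 1325 ± 511 (SD, n = 3), with a log2 fold change of 0.26 (SE 0.29, edgeR adjusted p = 0.520). The fitted value was -0.10 without SKI-II library 3 and 0.60 without DMSO library 3, and without both it was 0.24.

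Ugdh (chr5:65413221-65435949, minus strand) encodes UDP-glucose dehydrogenase, which makes the UDP-glucuronic acid used in glucuronidation and in hyaluronan synthesis. Its normalized counts of 1019, 984 and 1125 with DMSO compared with 619, 649 and 563 with SKI-II. The highest SKI-II library was far below the lowest DMSO library. The mean fell from 1043 ± 73.2 to 610 ± 43.6 (SD, n = 3), to 0.585 of the DMSO level (log2 fold change -0.77, SE 0.12, edgeR adjusted p = 0.00109). With 1 library left out the log2 fold change stayed between -0.82 and -0.72, with adjusted p of at most 0.00566.

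**Figure D3:**
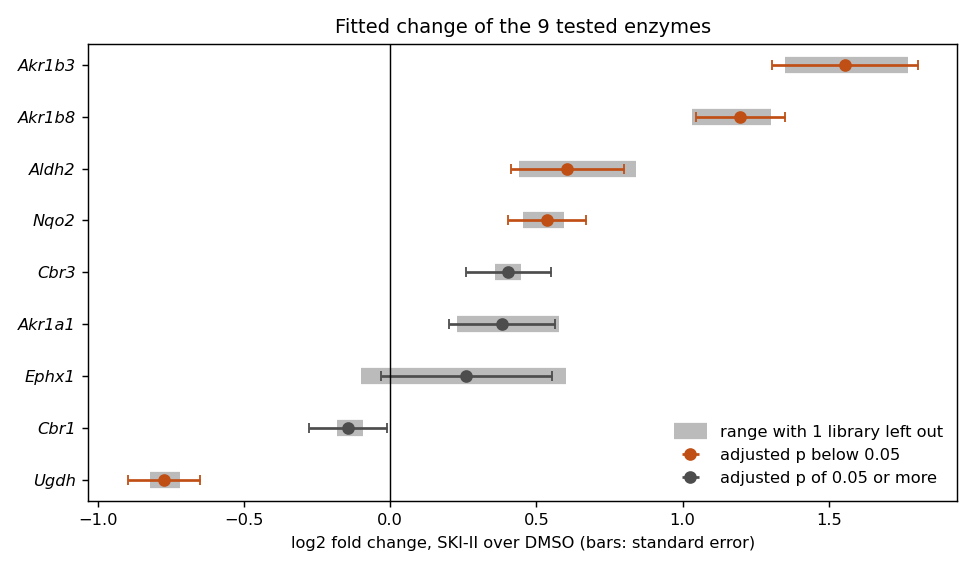
Fitted log2 fold changes of the 9 tested enzymes, SKI-II over DMSO, with standard errors as thin bars and the range over fits with 1 library left out as gray bands. Orange points passed an adjusted p below 0.05 in edgeR; the band of Ephx1 crosses 0, and those of Akr1b3, Akr1b8 and Ugdh stay far from it.

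To compare the enzymes with each other, levels were also expressed per length, as normalized counts per 1000000 (CPM) and per kb of annotated exon. In DMSO, Akr1a1 stood highest at 279 ± 64.9, followed by Akr1b8 at 102 ± 6.64 and Aldh2 at 102 ± 27.6, whose ranges overlapped. Akr1b3 at 42.9 ± 12.2 and Ephx1 at 35.4 ± 12.96 overlapped as well. Cbr3 (13.9 ± 0.738), Cbr1 (11.05 ± 0.291), Ugdh (9.63 ± 0.676) and Nqo2 (6.78 ± 0.307) followed on this exon length without overlap between neighbors, and Nqo1 was at 0. In SKI-II the order began again with Akr1a1 at 364 ± 37.1 and Akr1b8 at 234 ± 45.8. Aldh2 at 155 ± 16.6 and Akr1b3 at 126 ± 34.9 now overlapped. Ephx1 (42.3 ± 16.3) and Cbr3 (18.4 ± 1.11) came next, Cbr1 (10 ± 0.613) and Nqo2 (9.83 ± 0.973) overlapped, and Ugdh at 5.63 ± 0.402 was above Nqo1 alone, at 0.771 ± 0.926 (all in CPM per kb, SD, n = 3).

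Summed over the 10 enzymes, this per-length level was 602 ± 125 in DMSO and 965 ± 127 in SKI-II (SD, n = 3), 1.603-fold higher. The make-up of the sum shifted toward Akr1b3 and Akr1b8, which is given here without a test. Akr1a1 took 45.0%, 46.2% and 47.3% of the sum with DMSO and 39.7%, 34.8% and 39.0% with SKI-II. Akr1b3 took 6.17%, 7.57% and 7.42% in DMSO and 10.7%, 14.9% and 13.1% in SKI-II, and Akr1b8 went from a mean of 17.3% ± 2.34 to 24.2% ± 2.89. The share of Aldh2 was 16.7% ± 1.03 and 16.1% ± 0.672, and that of Ugdh 1.63% ± 0.252 and 0.592% ± 0.0967. These levels depend on the length used. With the principal transcript in place of all exons, the lower part of the DMSO order was reversed, with Ugdh (25.5 ± 1.79) above Cbr1 (22.8 ± 0.602) and Cbr3 (14.9 ± 0.791), and in SKI-II Ugdh (14.9 ± 1.07) stood above Nqo2 (10.3 ± 1.02). On that length, Akr1b3 stood second in DMSO at 259 ± 73.7 and at 762 in SKI-II, where it overlapped Akr1a1 at 704, and its share went from 22.2% to 36.8%. The share of Akr1b8 then went from 9.95% ± 1.53 to 12.6% ± 1.39 with overlapping groups, and in counts without length from 7.80% ± 1.23 to 10.3% ± 1.20.

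The other genes of the enzymes' families, 76 in 7 lists, moved in both directions. Of these, 52 were tested. Among the 52, 19 were higher (36.5%) and 11 were lower (21.2%), against 18.4% and 19.7% of all tested genes. The 52 had a median log2 fold change of 0.21, where all tested genes had 0.00377. Without DMSO library 2 or without SKI-II library 2, 7 rather than 11 were lower. Among the quinone and related flavin reductases 3 of 6 were higher, with Cyb5r1 (a cytochrome b5 reductase) rising from 1566 ± 519 to 6423 ± 1097 normalized counts (log2 fold change 2.04, SE 0.22) and Txnrd1 (thioredoxin reductase) from 6586 ± 302 to 10030 ± 541 (0.61, SE 0.12). The 1 that was lower, Cyb5r3, had a log2 fold change of -0.34 and an adjusted p of 0.0468, which was 0.0696 to 0.153 in each fit without 1 library other than DMSO library 1. Among 12 short-chain carbonyl reductases 3 were higher, led by Dhrs11 (1.45) and Dhrs7 (1.08), and 2 were lower, Cbr2 (-2.15, from 87.2 ± 17.3 to 19.3 ± 6.11) and Rdh11 (-0.84).

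Akr1b7, a close relative of Akr1b3 and Akr1b8, had 9, 4 and 19 counts with DMSO and 108, 269 and 300 with SKI-II. Its log2 fold change of 4.20 (SE 0.47, edgeR adjusted p = 0.000105) exceeded those of all 9 tested members. Akr1b10, singled out after its values were seen, was at 502 ± 58.0 and 519 ± 59.95 normalized counts (log2 fold change 0.05, adjusted p = 0.831), and it shares 31 stretches of 50 bases with Akr1b8. Of 6 tested non-member aldo-keto reductases 2 were higher (33.3%) and 1 was lower (16.7%), against 18.4% and 19.7% of all tested genes. The second higher one was Akr1c13 (1.44, adjusted p = 0.0220), whose groups overlapped and whose call was lost without DMSO library 1 (0.0516) or 2 (0.0780) or SKI-II library 2 (0.0637) or 3 (0.0720). The lower one was Akr7a5 (-0.57, adjusted p = 0.0113), lost without DMSO library 2 (0.0501) or SKI-II library 2 (0.0555).

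Of 12 other aldehyde dehydrogenases tested beside Aldh2, 3 were higher (25.0%) and 4 lower (33.3%), against 18.4% and 19.7% of all tested genes. Their median log2 fold change was -0.17, against 0.00377 over all tested genes. Aldh1l2, the mitochondrial formyltetrahydrofolate dehydrogenase, rose from 1871 ± 330 to 11690 ± 838 normalized counts (log2 fold change 2.64, SE 0.15, edgeR adjusted p = 7.89e-06), and Aldh7a1 rose by 0.80. Aldh4a1, which acts in proline breakdown, fell by 1.49 on the log2 scale. Aldh1l1, the cytosolic relative of Aldh1l2, dropped from 47 counts over the DMSO group to 1 over the SKI-II group (ratio 0.0190, exact 95% interval 0.000471 to 0.111, covering counting error only), and without SKI-II library 3, which held that count, it was at least 10.8-fold lower. Neither of the 2 tested genes beside Ephx1 was higher, and Lta4h was lower by -0.41 (adjusted p = 0.0185), lost without DMSO library 2 (0.0774) or SKI-II library 2 (0.0746).

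In glucuronidation, where Ugdh fell, 4 of 6 other tested genes were higher and 1 was lower, against 18.4% and 19.7% of all tested genes. Ugt1a7c, a UDP-glucuronosyltransferase, rose from 643 ± 79.2 to 1316 ± 242 normalized counts (log2 fold change 1.03, SE 0.16, edgeR adjusted p = 0.00102). Ugt1a6a went from 24.8 ± 7.06 to 56.3 ± 12.1 (1.18, adjusted p = 0.0205), lost without DMSO library 3 (0.0607) or SKI-II library 1 (0.0729) or 2 (0.0777). Genes of the Ugt1a locus share exons, so the split of reads between them is uncertain. Gusb, the β-glucuronidase that removes glucuronic acid, had a log2 fold change of -0.46 (adjusted p = 0.0173), lost without SKI-II library 3 (0.0567). The count of higher genes in this list was 2 without DMSO library 2, SKI-II library 1 or SKI-II library 2.

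In a mixed list of alkenal reductases, alcohol dehydrogenases and the molybdenum enzymes Aox1 and Xdh, 4 of 8 tested genes were higher and 1 was lower, with a median log2 fold change of 0.79. Adh7, a retinol and ethanol dehydrogenase, had 62, 39 and 100 counts with DMSO and 518, 894 and 852 with SKI-II (log2 fold change 3.34, SE 0.25, edgeR adjusted p = 1.94e-05). Aox1, aldehyde oxidase, rose from 9.35 ± 1.84 to 68.8 ± 6.00 normalized counts (2.88, SE 0.33). The other higher genes, named to complete the count after their values were seen, were Ptgr1 (1.27) and Xdh, xanthine dehydrogenase (1.59). Zadh2 was lower (-0.50, adjusted p = 0.0207), lost without DMSO library 1 (0.0555) or 2 (0.0515) or SKI-II library 1 (0.0634) or 2 (0.0734).

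**Figure D4:**
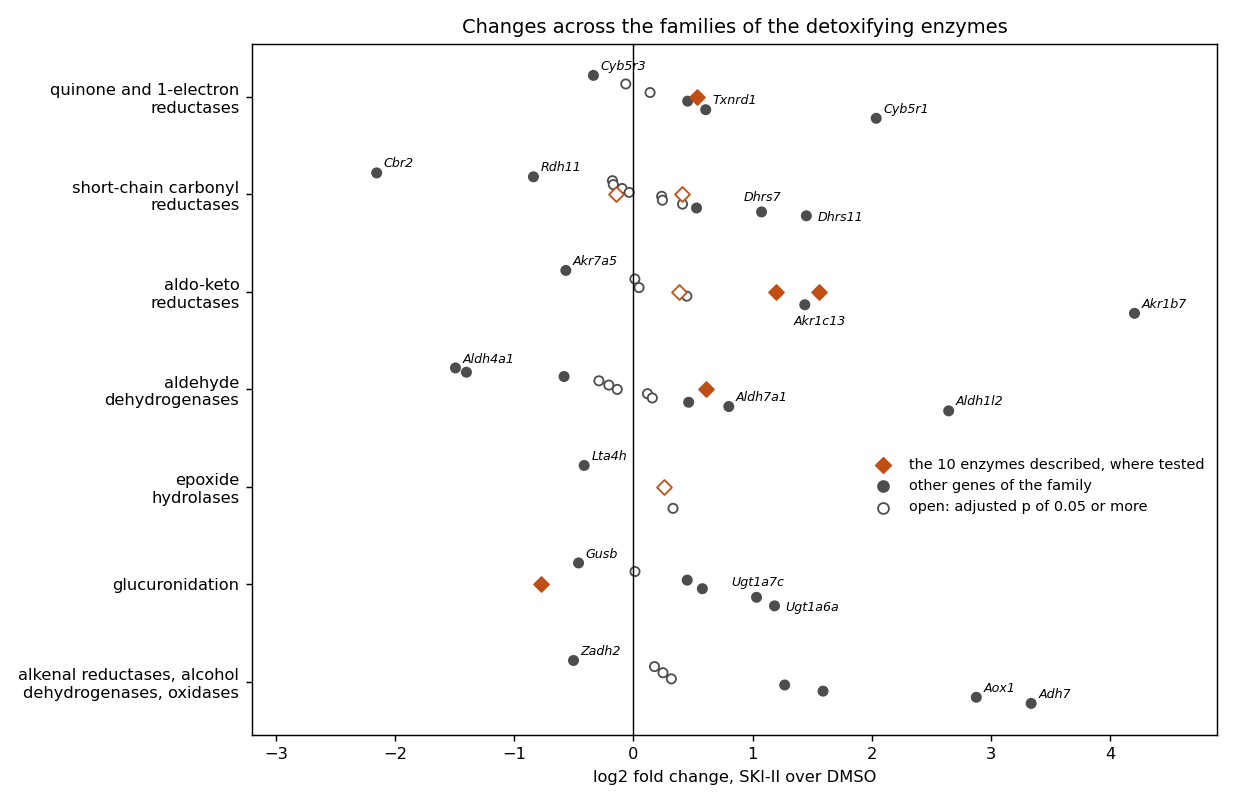
Log2 fold changes, SKI-II over DMSO, of the tested genes in 7 enzyme families, with the 9 tested members as orange diamonds and other genes as gray circles; open symbols have an adjusted p of 0.05 or more in edgeR. Akr1b7 and Adh7 lie farthest to the right, Ugdh and Cbr2 lie to the left, and Aldh1l1, with 1 count in SKI-II, is not drawn.

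Of 9 known regulators of these enzymes, all tested, 7 did not pass the test, 1 was higher and 1 was lower. These are 11.1% in each direction, against 18.4% higher and 19.7% lower of all tested genes. Nfe2l2, which encodes NRF2, was at 1584 ± 131 and 1571 ± 47.6 normalized counts (log2 fold change -0.01, edgeR adjusted p = 0.946), and Keap1, its inhibitor, had a log2 fold change of -0.04 (0.825). The higher one, Mafg, a partner of NRF2, rose from 2219 ± 345 to 4164 ± 312 (0.91, SE 0.14, adjusted p = 0.000842). Bach1 (-0.25, 0.219), Maff (0.58, 0.138), Mafk (0.16, 0.513), Arnt (0.09, 0.674) and Ahrr (0.05, 0.940), with the adjusted p second in each pair, did not pass the test. Maff alone among these passed without DMSO library 3 (log2 fold change 0.90, adjusted p = 0.0257) and without both libraries numbered 3 (1.11, 0.00336). Ahr had 51 counts over the DMSO libraries and 0 over the SKI-II libraries, at least 19.0-fold lower (edgeR adjusted p = 0.000994), or at least 11.7-fold without SKI-II library 3. These limits cover only the counting error of the zeros in SKI-II and take the DMSO counts as exact. The activity of these proteins was not measured by the libraries.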

How the data were processed

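RNA was measured in 3 DMSO and 3 SKI-II libraries, grouped by their labels. The values used were raw read counts per Ensembl gene as deposited by the authors, not normalized. The submitters' processing notes name Trimmomatic 0.36, STAR 2.5.2b, featureCounts of Subread 1.5.2 and DESeq2; for the strand setting, build and annotation the entry is "not given in the sources used here". GENCODE M21 on GRCm38 named 48970 of 49315 identifiers and gave positions and lengths. RefSeq supplied the promoter windows (GRCm38.p6), and proteins were not analysed here. Groups were compared in edgeR 4.0.16 (R 4.3.3) by its quasi-likelihood F test after TMM scaling. Genes had to reach the equivalent of 10 counts at the median library size in at least 3 libraries, the size of a group, and a total of 15. This left 12274 genes with at least 99.9% of the counts, over which p-values were adjusted by Benjamini-Hochberg. The common biological coefficient of variation was 17.5%. Ratios took log2 after adding 0.5 and were compared by exact permutation over the 20 arrangements. Intervals are exact (Clopper-Pearson).

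Libraries of a group all differed by more than sampling noise (chi-square per degree of freedom 15.4 to 58.1) and each counted as 1 replicate. The members and gene lists were chosen with earlier results of these data known, and the lists were written by hand from general knowledge. All members were named, and in each list at most the 2 largest and 2 smallest log2 fold changes among genes with an adjusted p below 0.05, and every tested regulator. Alternatives were DESeq2 1.42.0, limma-voom (limma 3.58.1), RLE scaling, library size alone, no filter, 10 counts or more in every library, leave-one-out fits, the replicate number as a block, testing against a log2 change of 1, a pseudocount of 5 for ratios and counts without length for shares. Leaving out both libraries numbered 3 and using the principal transcript length were added after seeing the data. The scripts were tested on simulated counts. Figures were drawn with matplotlib 3.10.9.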

Additional observations from a re-analysis of the deposited data

How the results depend on the processing

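Of the fits of the 9 tested members under other settings, apart from the test against a log2 fold change of 1, 113 kept both the direction and the side of the threshold, 7 passed newly, 5 no longer passed and 1 reversed, Ephx1 at -0.10 without SKI-II library 3 (range to 0.60 without DMSO library 3). The cause was not tested. Members called higher numbered 4, and 2 to 5 with 1 library left out (2 without DMSO library 2), and 1 was lower in each fit. Tested against a log2 fold change of 1, 341 genes were higher and 381 lower, in place of 1016 and 913, and 0 members were called in edgeR in place of the 2 higher past 1 (2 at an unadjusted p below 0.05, Akr1b3 and Akr1b8). Leaving out 1 library gave 1507 to 2227 genes higher, 1766 to 2387 lower, 819 to 1128 higher and 835 to 1044 lower past a log2 fold change of 1, 14 to 18 other enzymes higher and 7 to 10 lower. The log2 ratio differences then ranged from 3.10 to 4.65 for Nqo1 to Nqo2, 0.45 to 0.62 for Cbr3 to Cbr1, -0.52 to -0.19 for Akr1b8 to Akr1b3 and 0.98 to 1.31 for Akr1b3 to Akr1a1. With a pseudocount of 5 the Nqo1 to Nqo2 difference was 1.33. The share of Akr1b3 differed by 5.84 percentage points, by 12.8 in counts without length and by 14.6 with the principal transcript length; that of Akr1a1 differed by -8.33 and with that length by -11.8, and that of Aldh2 by -0.66 and without length by -2.41. Leaving out 1 library gave share differences of -9.26 to -6.81 for Akr1a1, 4.85 to 6.93 for Akr1b3 and -1.04 to -0.08 for Aldh2.

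With the replicate number as a block, 6 members were higher and 1 lower, Cbr3 (adjusted p = 0.0435) and Akr1a1 (adjusted p = 0.0173) passing newly in edgeR, among 2765 genes higher and 2819 lower; the 4 ratio differences were the same, each with p = 0.25 in an exact sign-flip test, the smallest it allows. Deviations of libraries with the same number correlated at 0.246, 0.01 and 0.458 over genes, and DMSO library 1 correlated best with SKI-II library 2 (0.296), so the numbers were not taken as pairs. At these depths Nqo1 in DMSO is known only as below the limit that a count of 0 allows.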

Other observations

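Of the 76 other enzymes in the family lists, 24 were not tested, and 12 of these had no count in any library, which allows at most 3 counts over a group. Named here after their values were seen, they were the aldo-keto reductases Akr1c6, Akr1c14, Akr1c18, Akr1c19, Akr1c20, Akr1c21 and Akr1d1, the retinal dehydrogenases Aldh1a1 and Aldh1a2 with their relative Aldh1a7, the soluble epoxide hydrolase Ephx2, and Ugt1a9. The other 12 had at most 28 counts over all 6 libraries.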
